A study of Mus musculus with 12 samples.

Results

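Whole-lung RNA of C57BL/6NCr mice aged 30 months was compared with that of C57BL/6NCr mice aged 6 months, gene by gene. The comparison used the 3 libraries at 30M (30M_216, 30M_218 and 30M_220) and the 3 at 6M (6M_201, 6M_202 and 6M_203), chosen by the age in their titles, of 12 libraries in all. The study profiled lungs at 6, 12, 20 and 30 months with 3 libraries per age, and C57BL/6NCr is an inbred laboratory substrain of C57BL/6. No treatment or allele is named in the labels, so age is the difference they give between the groups. Values of single libraries are given in the order 30M_216, 30M_218 and 30M_220, and 6M_201, 6M_202 and 6M_203. Levels are in CPM, the counts of a gene per 1e+06 counts of its library, after TMM, a scaling that sets the bulk of genes level between libraries.

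The lung holds thin alveolar type 1 cells, across which gas is exchanged, alveolar type 2 cells, which make surfactant, and the secretory and ciliated cells of the airways. Capillaries, fibroblasts and smooth muscle surround them. Macrophages sit in the airspaces and in the tissue, and monocytes, neutrophils, lymphocytes and platelets reach the lung with the blood. RNA of the whole organ mixes all of these. In such bulk samples a lower level from fewer cells of a type and one from less RNA per cell cannot be told apart, and the same holds for a higher level.

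The 6 libraries held 12152066 to 14746298 counts. No 2 libraries of the same age were duplicates, as pairs differed by a chi-square of 6.87 to 53.3 for each gene, and they correlated at r = 0.956 to 0.983 across genes on the log2 CPM scale. In 30M_220 the level over the 6M mean followed the GC content of the gene (Spearman rho = 0.328 across 18382 genes), against 0.0518 in 30M_216 and 0.0343 in 30M_218. Summed CPM of 21 genes that mark lung tissue ran from 49284 to 81393 at 30M and from 72088 to 85360 at 6M, lowest in 30M_220. Genes of tissue that could come along in dissection differed between single libraries. Cardiac muscle genes summed to 384 to 1735 CPM at 30M, the highest in 30M_220, and to 591 to 963 CPM at 6M. Mesothelial genes summed to 522 to 1764 CPM at 30M, the highest in 30M_218, and to 805 to 960 CPM at 6M. Skeletal muscle genes stayed at 47.3 CPM or less in each of the 6 libraries. Red cell genes summed to 1250 to 1317 CPM at 30M and 518 to 1127 CPM at 6M, with 1 of 7 called higher, Slc4a1, the anion exchanger of red cells (adjusted p = 0.0358), a gene named after its value was seen and lost without any library other than 30M_216 (up to 0.214).

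The difference between the ages ran almost wholly upward. The table lists 55487 genes, of which 18407 were tested, and 356 of them were higher at 30M (1.93% of those tested) and 5 lower (0.0272%) at an adjusted p under 0.05 in edgeR's quasi-likelihood test. The call therefore fell on 1.96% of tested genes. Among the higher genes the median log2 change was 1.45, with a range of 0.53 to 6.95. Of these, 284 were above 1 on that scale, which is a doubling, 103 above 2 and 36 above 3. Every one of the 356 had all 3 libraries at 30M above all 3 at 6M, where 9.89% of all tested genes did, and each of the 5 lower genes had them below, where 8.66% did. Relative to the 6M mean the higher genes had medians of 1.496, 1.48 and 1.42 in the 3 libraries at 30M, and none of them lay below 0 in any of the 3. The highest of the 3 libraries was 30M_216 for 132 of them, 30M_218 for 109 and 30M_220 for 115. The genes were called on these same libraries, so the gaps between the ages follow largely from that choice. They add no support to the calls.

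At a looser threshold the lean had the same direction but was weaker. At an unadjusted p under 0.05 there were 1472 genes above (8.0%) and 658 below (3.57%). The median tested gene changed by 0.0028, and the middle of the distribution was nearly even, with quartiles at -0.18 and 0.22. Its tails were not: the 1st and 5th percentiles were -1.0 and -0.53, and the 95th and 99th were 1.05 and 2.36. Changes above 1 were estimated for 995 tested genes and changes below -1 for 185. The higher genes took 3.10%, 3.11% and 3.02% of all CPM at 30M, against 1.56%, 1.37% and 1.20% at 6M. A larger share at 30M follows from their choice as higher genes. Called genes lay at all levels of expression. By mean CPM over all 12 libraries, 0.878% of tested genes between 0.3 and 1 were higher, 1.29% between 1 and 3, 2.34% between 3 and 10 and 2.63% between 10 and 30. From 30 to 100 CPM 1.82% were higher, from 100 to 300 CPM 1.53%, and above 300 CPM 2.18%. With tested genes split by GC content into 5 equal bins, low to high, 1.55%, 1.96%, 1.93%, 2.45% and 1.74% were higher.

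How many genes pass depends on each of the few libraries. Leaving out 1 library at a time left 276 calls without 30M_216, 214 without 30M_218 and 326 without 30M_220. It left 217 without 6M_201, 121 without 6M_202 and 69 without 6M_203. Of the 361 genes, 67 were called in all 6 of these fits. Unless a gene is said to lose its call without a library, it is one of those 67 or was not called at all.

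**Figure D1:**
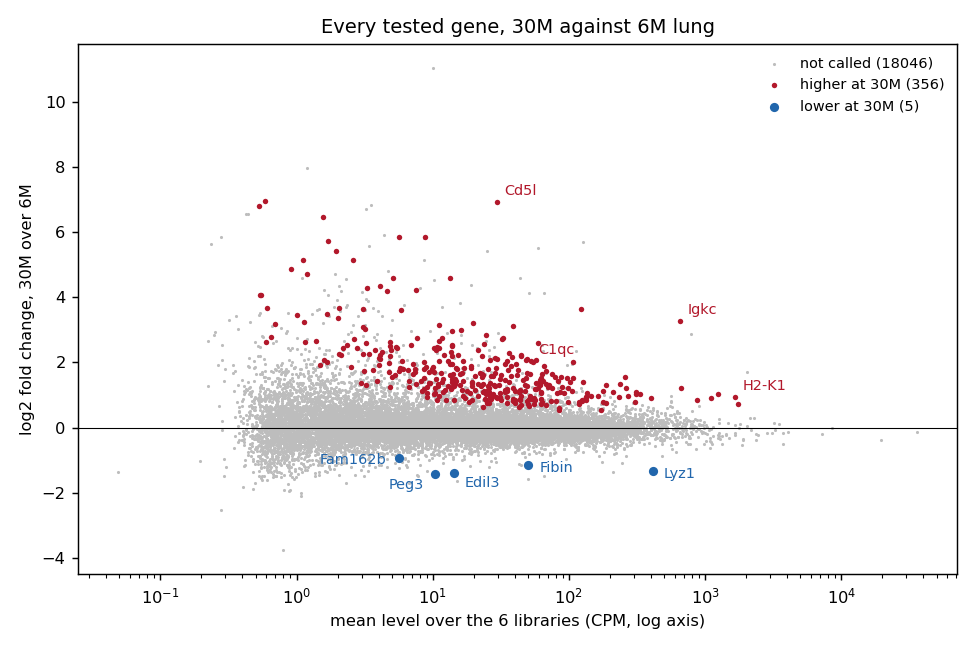
Log2 fold change, 30M over 6M, against the mean CPM of the 6 libraries (log axis) for each of the 18407 tested genes. Red points are the 356 genes called higher at 30M, blue points the 5 called lower and grey points those not called; the red points span the range of levels and the blue ones are few.

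The smallest p-values belonged to genes that macrophages and monocytes express and to predicted genes of chromosome 1. Tnfrsf1b (ENSMUSG00000028599, chromosome 4, 145213463 to 145246870, minus strand, GRCm38), the second receptor for tumour necrosis factor, stood at 111, 108 and 121 CPM at 30M, against 44.0, 36.6 and 29.4 CPM at 6M. The libraries of an age lay close together and far from those of the other, and the log2 change was 1.63 (SE 0.17, adjusted p = 0.000952). C130026I21Rik (ENSMUSG00000052477), a predicted gene of the Sp140 region, had 25.1, 23.1 and 25.1 CPM at 30M, against 4.70, 2.39 and 2.18 CPM at 6M, a log2 change of 2.97 (SE 0.27, adjusted p = 0.000952). C1qc and C1qb encode chains of C1q, the first component of the classical complement pathway, which tissue macrophages make. C1qc had 91.8, 94.9 and 66.4 CPM at 30M, against 22.6, 22.7 and 15.8 CPM at 6M. C1qb had 113, 120.0 and 80.0 CPM at 30M, against 28.7, 29.5 and 25.8 CPM at 6M. Both were lowest in 30M_220 among the older libraries, and there too they stood above every 6M library. Their log2 changes were 2.05 (SE 0.21) and 1.90 (SE 0.20), each with an adjusted p of 0.000952.

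Several of the most significant genes belong to no list used here. F10 (ENSMUSG00000031444, chromosome 8, 13037308 to 13056676, plus strand), which encodes coagulation factor X, had 32.1, 24.5 and 19.3 CPM at 30M, against 4.55, 5.61 and 5.90 CPM at 6M. Its log2 change was 2.24 (SE 0.27, adjusted p = 0.00174). Smpdl3b (ENSMUSG00000028885), a phosphodiesterase of the cell surface related to acid sphingomyelinase, had 12.9, 20.6 and 18.7 CPM at 30M, against 3.73, 3.63 and 2.18 CPM at 6M (log2 change 2.45, SE 0.26, adjusted p = 0.000952). Both genes showed a wide gap between the ages next to the spread within each. Pld4, an exonuclease of endosomes in spite of its phospholipase name, had 82.7, 94.5 and 100.3 CPM at 30M, against 31.2, 19.4 and 15.8 CPM at 6M (log2 change 2.06, SE 0.24, adjusted p = 0.00152). Gngt2, a gamma subunit of G proteins, had 68.5, 90.1 and 81.8 CPM at 30M, against 34.3, 36.4 and 34.4 CPM at 6M, a log2 change of 1.19 (SE 0.15, adjusted p = 0.00224). Metrnl, a secreted protein of the meteorin family, had 36.8, 37.6 and 26.1 CPM at 30M, against 13.7, 13.9 and 11.7 CPM at 6M, a log2 change of 1.35 (SE 0.17, adjusted p = 0.00224). In all, 117 of the 356 higher genes were on one of 69 gene lists and 239 on none.

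The genes with the most reads were another matter. The 10 with the highest mean CPM over the 6 libraries were Scgb1a1, Sftpc, mt-Co1, Lyz2, mt-Cytb, Sftpa1, Cbr2, Tmsb4x, Cyp2f2 and Eef1a1, and none was called. Scgb1a1, the main secretory protein of club cells, had 41459, 37788 and 23814 CPM at 30M, against 33340, 41048 and 39928 CPM at 6M. Sftpc, surfactant protein C, had 20984, 19522 and 10377 CPM at 30M, against 20109, 23511 and 22745 CPM at 6M. Both were lowest in 30M_220, and the ages overlapped (log2 changes of -0.15 and -0.38, SE 0.26 and 0.29, edgeR adjusted p of 0.915 and 0.723).

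Of the called genes with the most reads, H2-D1, H2-K1, B2m and Cd74 belong to antigen presentation. H2-D1 and H2-K1 encode the heavy chains of classical MHC class I molecules, and B2m their light chain. H2-D1 had 2425, 2178 and 1950 CPM at 30M, against 1345, 1351 and 1282 CPM at 6M (log2 change 0.72, SE 0.16, adjusted p = 0.0413). H2-K1 had 2239, 2379 and 1911 CPM at 30M, against 1281, 1050 and 1098 CPM at 6M (log2 change 0.93, SE 0.17, adjusted p = 0.0128). B2m had 1846, 1746 and 1404 CPM at 30M, against 914, 825 and 735 CPM at 6M (log2 change 1.01, SE 0.18, adjusted p = 0.0129). In each of the 3 genes the libraries at 30M lay above those at 6M. Cd74, the invariant chain of class II molecules, had 1188, 1362 and 1754 CPM at 30M, against 881, 734 and 668 CPM at 6M (log2 change 0.91, SE 0.19, adjusted p = 0.0262). Psap, whose product is cut into the saposins that help lysosomal enzymes reach their lipids, had 1174, 1015 and 1190 CPM at 30M, against 657, 652 and 577 CPM at 6M (log2 change 0.84, SE 0.17, adjusted p = 0.0242). Igkc, the constant region of the immunoglobulin kappa chain, had 1478, 1226 and 850 CPM at 30M, against 145, 118 and 104 CPM at 6M (log2 change 3.28, SE 0.70, adjusted p = 0.042). Immunoglobulin genes together took 0.428%, 0.329% and 0.370% of all CPM at 30M, against 0.0641%, 0.0521% and 0.0389% at 6M. Without 6M_202 or 6M_203 none of these 6 genes kept its call, and the adjusted p reached 0.227 for H2-D1, 0.101 for H2-K1, 0.109 for B2m, 0.183 for Cd74, 0.173 for Psap and 0.227 for Igkc. H2-D1 was also lost without 30M_216, 30M_218 or 6M_201, Cd74 without 30M_218 or 30M_220, Psap without 30M_216, 30M_220 or 6M_201, and Igkc without any 1 library.

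Genes that carry signals inside blood cells formed the broadest group among the lists. Of 26 Fc receptor and immunoreceptor adaptors 9 rose and none fell (median log2 change 0.96, against 0.0028 over all tested genes). Lcp2, the scaffold SLP-76 of T cells, platelets and myeloid cells, had 39.5, 55.2 and 36.5 CPM at 30M, against 13.9, 15.1 and 12.5 CPM at 6M (log2 change 1.66, SE 0.20, adjusted p = 0.00179). Fyb, an adaptor that links such scaffolds to integrins, had 38.7, 49.1 and 55.7 CPM at 30M, against 17.8, 18.5 and 10.8 CPM at 6M (log2 change 1.61, SE 0.22, adjusted p = 0.0029). For both genes the lowest library at 30M lay well above the highest at 6M. Fcer1g, the shared gamma chain of activating Fc receptors, had 94.5, 144 and 77.3 CPM at 30M, against 32.5, 35.7 and 26.5 CPM at 6M (log2 change 1.74, SE 0.25, adjusted p = 0.00385). Sla, which dampens signals of the same receptors, rose with them by 1.15 (SE 0.16, adjusted p = 0.003).

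Of 29 immune cell tyrosine kinases and phosphatases, with linked enzymes, 10 rose (median 0.82). Pik3cg, the catalytic subunit of the phosphoinositide 3-kinase that G protein-coupled receptors drive in leukocytes, had 18.5, 22.6 and 19.7 CPM at 30M, against 9.63, 7.35 and 7.92 CPM at 6M (log2 change 1.28, SE 0.17, adjusted p = 0.0029). Fgr, a Src-family kinase of myeloid cells, had 63.0, 69.1 and 62.0 CPM at 30M, against 19.5, 20.8 and 9.78 CPM at 6M (log2 change 1.95, SE 0.29, adjusted p = 0.00549). Ptpn6 (SHP-1), the phosphatase that inhibitory receptors recruit, and Lyn, the kinase that phosphorylates those receptors, rose by 1.07 (SE 0.18, adjusted p = 0.00879) and 0.85 (SE 0.14, adjusted p = 0.00893). The pair lost its calls without 6M_203, at an adjusted p of 0.0661 for Ptpn6 and 0.0769 for Lyn.

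Of 43 immune cell transcription factors 10 rose (median 0.75). Spi1, which encodes PU.1, the regulator that myeloid cells need to form, had 70.4, 78.2 and 77.8 CPM at 30M, against 23.7, 32.3 and 15.0 CPM at 6M (log2 change 1.67, SE 0.24, adjusted p = 0.00416). The 3 libraries at 30M were nearly equal, while those at 6M spread over a factor of more than 2. Nfe2, a regulator of the platelet-forming lineage, had 18.8, 31.7 and 19.4 CPM at 30M, against 5.97, 8.58 and 5.01 CPM at 6M (log2 change 1.84, SE 0.27, adjusted p = 0.00416). Spic, which in mouse spleen is needed for the macrophages that clear red cells, and Irf5, an interferon regulatory factor of myeloid cells, rose by 2.37 (SE 0.47, adjusted p = 0.021) and 0.90 (SE 0.17, adjusted p = 0.0157). Both lost the call without 30M_218, 6M_202 or 6M_203, and Spic also without 6M_201, at an adjusted p of up to 0.15 for Spic and 0.119 for Irf5. Over these 3 lists, the calls kept fell to 4 of 9 adaptors without 6M_202 or 6M_203, to 2 of 10 kinases and phosphatases without 6M_203, and to 2 of 10 transcription factors without 6M_202 or 6M_203.

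At the cell surface, 14 of 32 paired and inhibitory receptors rose (median 1.23), the highest median of any list with over 9 measured genes. These receptors come in activating and inhibitory forms that sit in families on myeloid and lymphoid cells. Cd300e, an activating receptor of monocytes, had 18.9, 31.1 and 36.1 CPM at 30M, against 4.85, 3.63 and 2.34 CPM at 6M (log2 change 2.99, SE 0.33, adjusted p = 0.000952). Cd300a, an inhibitory member of that family, had 54.9, 40.0 and 33.1 CPM at 30M, against 11.7, 11.9 and 6.95 CPM at 6M (log2 change 2.06, SE 0.28, adjusted p = 0.00286). So members of both kinds rose, with no overlap between the ages. The C-type lectins Clec4a1 and Clec4a3, receptors of macrophages and dendritic cells, rose by 2.86 (SE 0.30) and 2.20 (SE 0.24), both at an adjusted p of 0.000952. Without 6M_203 the calls on paired and inhibitory receptors fell to 2 of 14.

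Of 34 immune cell G protein-coupled receptors 6 rose (median 0.86). Adgre1, which encodes the macrophage antigen F4/80, had 61.9, 51.2 and 49.3 CPM at 30M, against 19.6, 12.5 and 9.62 CPM at 6M (log2 change 1.96, SE 0.22, adjusted p = 0.000952). Gpr35 had 16.6, 11.3 and 14.2 CPM at 30M, against 4.85, 4.62 and 2.02 CPM at 6M (log2 change 1.87, SE 0.30, adjusted p = 0.00707). Of 34 cytokine and growth factor receptors 8 rose (median 0.47), Tnfrsf1b with the smallest p and then Il2rg, Il12rb1 and Csf2rb2. Il2rg, the gamma chain shared by receptors for several interleukins, had 31.6, 34.9 and 37.0 CPM at 30M, against 20.2, 17.1 and 17 CPM at 6M (log2 change 0.93, SE 0.16, adjusted p = 0.0108). Il2rg, Il12rb1 and Csf2rb2 lost their calls without 6M_202 or 6M_203, at an adjusted p of up to 0.0887, 0.0985 and 0.101. In those fits 1 of the 8 cytokine receptors kept its call, and 2 of the 6 G protein-coupled receptors did, as they did without 30M_218.

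Chemokine receptors and SLAM receptors were called in part. Of 20 chemokine receptors 5 rose (median 0.48, or 1.05 without 6M_202, and 0.30 when at least 1 CPM in 3 libraries was required or only the 6 libraries were fitted). Xcr1, which marks the dendritic cells that present antigen to CD8 T cells, had 5.64, 12.7 and 5.56 CPM at 30M, against 1.49, 1.57 and 2.1 CPM at 6M (log2 change 2.20, SE 0.45, adjusted p = 0.0241). Cx3cr1, the fractalkine receptor of patrolling monocytes, had 35.7, 54.0 and 50.4 CPM at 30M, against 17.1, 7.43 and 7.44 CPM at 6M (log2 change 2.13, SE 0.44, adjusted p = 0.0306). Cxcr6 and Cxcr3, receptors of effector T cells, rose by 1.49 (SE 0.30, adjusted p = 0.0242) and 1.72 (SE 0.37, adjusted p = 0.03). None of the 5 kept its call without 30M_218, 6M_202 or 6M_203, at an adjusted p of up to 0.116 for Xcr1, 0.183 for Cx3cr1, 0.163 for Cxcr6 and 0.177 for Cxcr3. Of 9 SLAM receptors, which let blood cells touch one another, 4 rose (median 1.25). In 8 of the 9 the libraries at 30M lay above those at 6M, where 9.89% of all tested genes did. Cd244a was the first of them by p (log2 change 1.95, SE 0.36, adjusted p = 0.0139), with an adjusted p of up to 0.0809 without 30M_218 or 6M_203, when no SLAM call was left.

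Genes of adhesion and of the cytoskeleton were called as well. Of 16 integrins of blood cells 7 rose (median 0.97). Itgb2, the beta chain common to the leukocyte integrins, had 143, 134 and 196 CPM at 30M, against 60.2, 65.2 and 40.7 CPM at 6M (log2 change 1.51, SE 0.20, adjusted p = 0.00261). Itgal, its partner in LFA-1, had 109.7, 106 and 174 CPM at 30M, against 55.8, 48.8 and 29.6 CPM at 6M (log2 change 1.54, SE 0.23, adjusted p = 0.0055). The chains of that heterodimer differed by almost the same factor. Itgad, a partner of Itgb2 found on tissue macrophages, had 5.81, 22.4 and 14.6 CPM at 30M, against 1.34, 0.578 and 0.323 CPM at 6M (log2 change 4.22, SE 0.64, adjusted p = 0.00584). Itga2b, the alpha chain of the platelet fibrinogen receptor, had 31.3, 48.9 and 63.9 CPM at 30M, against 11.3, 10.6 and 11.6 CPM at 6M (log2 change 2.11, SE 0.32, adjusted p = 0.00627). The platelet genes Gp1ba and Gp6, receptors for von Willebrand factor and collagen, also rose, by 2.23 (SE 0.42, adjusted p = 0.016) and 2.25 (SE 0.47, adjusted p = 0.0282). Gp6 was lost without any 1 library (adjusted p up to 0.173) and Gp1ba without 30M_220, 6M_202 or 6M_203 (up to 0.101).

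Of 32 immune cell actin regulators 17 rose, the highest count of any list, and all 32 had a positive change (median 0.86). Plek, a substrate of protein kinase C in platelets and leukocytes, had 164, 137 and 143 CPM at 30M, against 59.3, 61.6 and 48.4 CPM at 6M (log2 change 1.39, SE 0.18, adjusted p = 0.00273). Fermt3, the kindlin of blood cells, which activates integrins, had 49.8, 55.0 and 84.1 CPM at 30M, against 24.3, 20.1 and 17.1 CPM at 6M (log2 change 1.62, SE 0.22, adjusted p = 0.00285). Hcls1 and Nckap1l, which drive branching of actin in blood cells, rose by 1.46 (SE 0.21, adjusted p = 0.00442) and 1.185 (SE 0.19, adjusted p = 0.00656). Per library the median of the list over the 6M mean was 0.82, 0.82 and 0.92, so the 3 libraries at 30M gave nearly 1 value. Without 6M_203 the calls fell to 4 of 17, without 6M_202 to 8 and without 30M_218 to 11; among the integrins 4 of 7 were kept without 30M_220, 6M_202 or 6M_203.

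**Figure D2:**
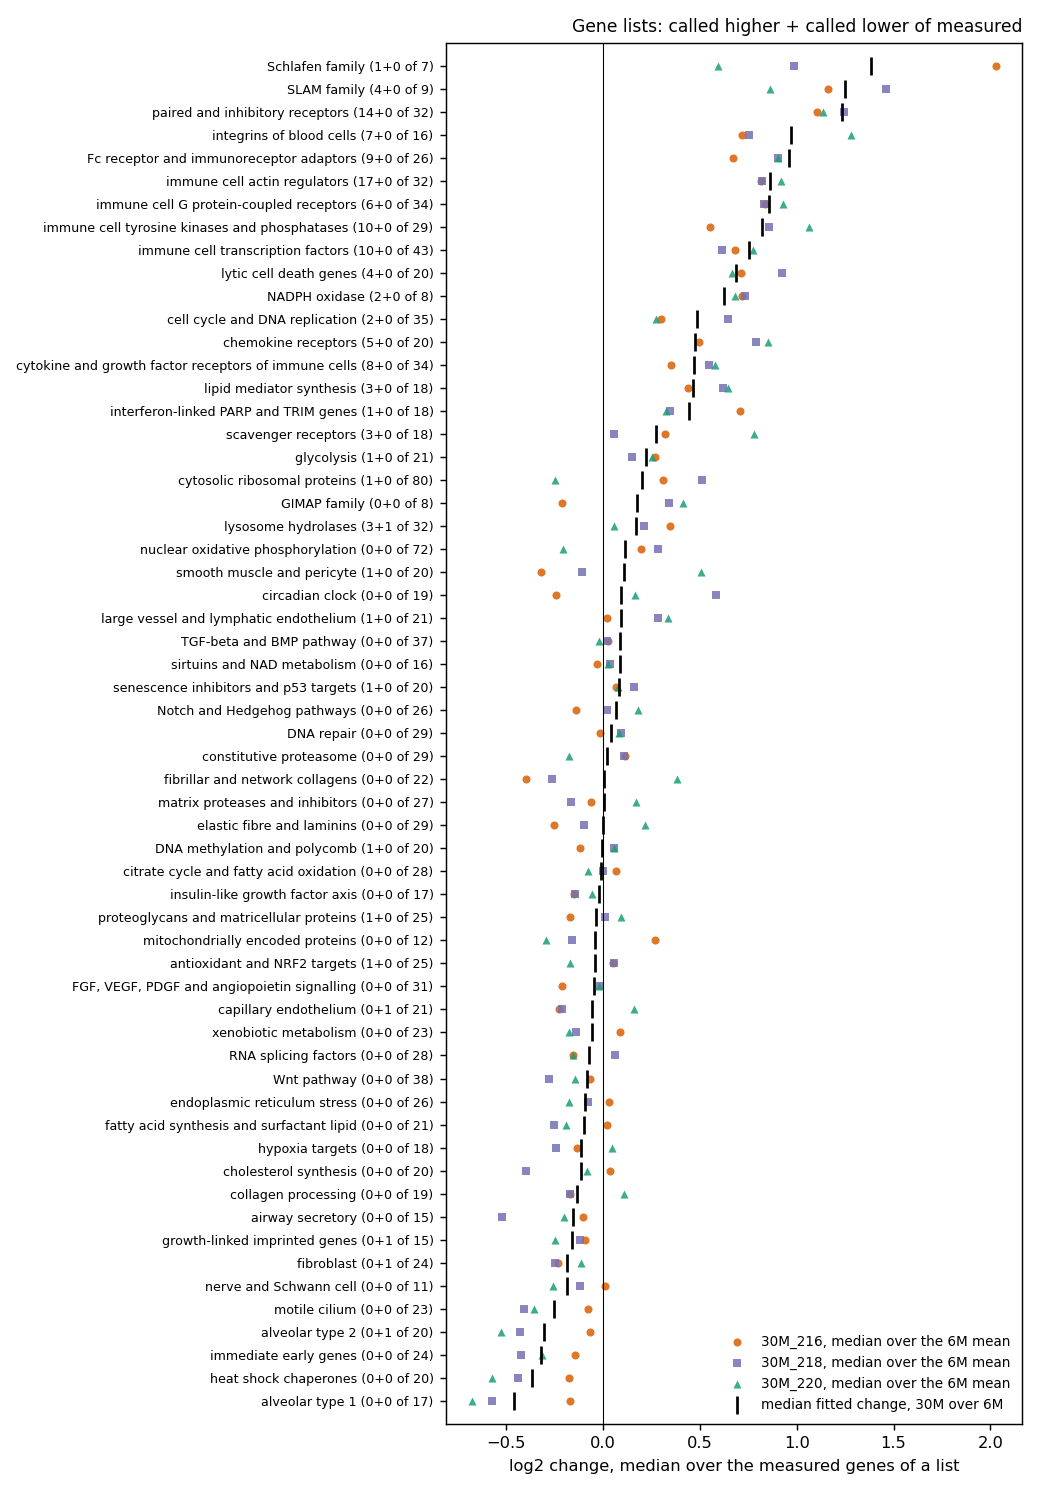
Median log2 change, 30M over 6M, of the measured genes of each list (black ticks), with the median over the 6M mean in 30M_216, 30M_218 and 30M_220 (circles, squares and triangles). Numbers in brackets are genes called higher plus genes called lower, of those measured; receptor and signalling lists lie at the top, and alveolar, heat shock and immediate early genes at the bottom.

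Effector genes were called in several lists. Of 8 NADPH oxidase genes, the enzyme that makes superoxide in phagocytes, 2 rose (median 0.62). Cybb, its catalytic subunit, had 224, 142 and 152 CPM at 30M, against 51.9, 43.5 and 32.0 CPM at 6M (log2 change 2.02, SE 0.27, adjusted p = 0.003). Its membrane partner Cyba rose by 0.78 (SE 0.15, adjusted p = 0.0197) but lost the call without any of the 5 libraries other than 30M_220 (adjusted p up to 0.15). Of 20 lytic cell death genes 4 rose (median 0.68). Naip2, an inflammasome sensor of bacterial secretion systems, had 25.5, 14.5 and 20.6 CPM at 30M, against 7.31, 5.86 and 6.79 CPM at 6M (log2 change 1.6, SE 0.22, adjusted p = 0.0033). Pycard and Casp1, the adaptor and the protease of inflammasomes, rose by 1.39 (SE 0.27, adjusted p = 0.0184) and 1.38 (SE 0.28, adjusted p = 0.0251). Zbp1, an interferon-inducible sensor of Z-form nucleic acid, had 99.4, 44.5 and 22.8 CPM at 30M, against 10.7, 8.17 and 6.47 CPM at 6M (log2 change 2.71, SE 0.53, adjusted p = 0.0242). Without 6M_201, 6M_202 or 6M_203 only Naip2 of these 4 kept its call, and the adjusted p of the others reached 0.0988 for Pycard, 0.161 for Casp1 and 0.165 for Zbp1; Pycard and Casp1 were lost without 30M_216 or 30M_218 too.

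Scavenger receptors were uneven. Of 18 measured 3 rose (median 0.27, or 0.44 without 30M_218). Cd68, a marker of macrophage lysosomes, had 46.8, 32.8 and 45.8 CPM at 30M, against 14.8, 17.3 and 9.86 CPM at 6M (log2 change 1.58, SE 0.22, adjusted p = 0.003). Cd5l, a secreted protein of tissue macrophages, had 84.6, 82.8 and 9.57 CPM at 30M, against 0.373, 0.743 and 0.323 CPM at 6M (log2 change 6.92, SE 1.28, adjusted p = 0.0251). Msr1 had 39.8, 12.4 and 7.44 CPM at 30M, against 2.09, 2.89 and 1.70 CPM at 6M (log2 change 3.15, SE 0.65, adjusted p = 0.0307). The libraries at 30M differed from one another by several fold in the last 2 genes, yet did not overlap with 6M. Each of them was lost without 30M_216, 6M_201, 6M_202 or 6M_203, and Cd5l also without 30M_218 (adjusted p up to 0.177 for Cd5l and 0.188 for Msr1). Of 32 lysosome hydrolases 3 rose and 1 fell (median 0.17). Ctss, a cathepsin that trims the class II invariant chain, had 433, 334 and 246 CPM at 30M, against 139, 148 and 111 CPM at 6M (log2 change 1.35, SE 0.23, adjusted p = 0.0105), and was lost without 6M_203 (0.0887), when no call of that list was left. Of 18 genes for lipid mediators 3 rose (median 0.46), which were Alox5ap, Alox12 and Tbxas1 (adjusted p of 0.0242, 0.0436 and 0.0468). No call of that list was left without 30M_216, 30M_218, 6M_201 or 6M_203, and Alox12 and Tbxas1 were lost without any 1 library (adjusted p up to 0.152 for Alox5ap, 0.23 for Alox12 and 0.246 for Tbxas1).

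**Figure D3:**
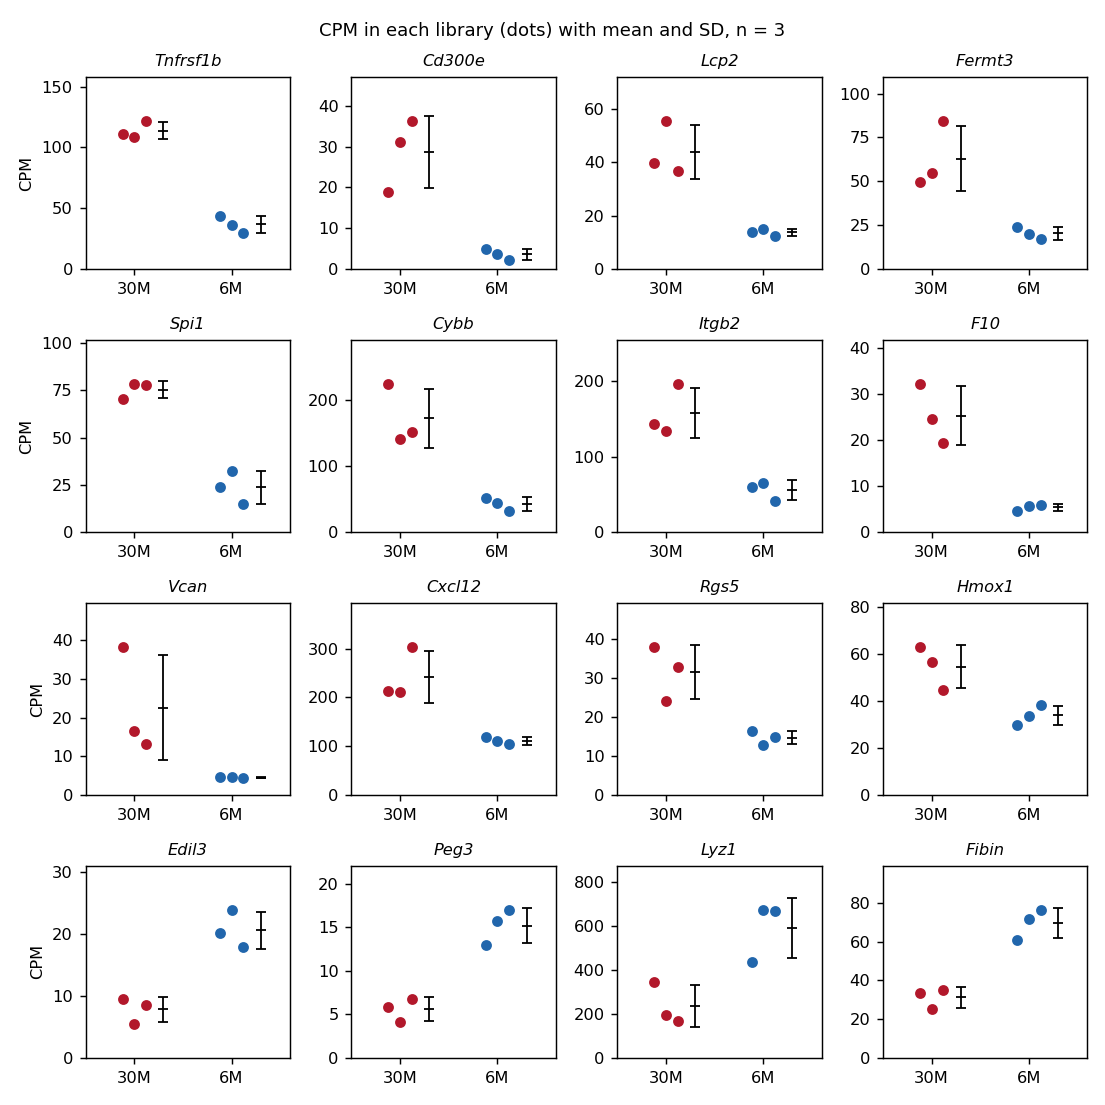
CPM of 16 genes in each library (dots, 30M in red left of 6M in blue) with the mean and SD of the 3 libraries (black). In the 12 higher genes every dot at 30M lies above every dot at 6M, and in Edil3, Peg3, Lyz1 and Fibin every dot at 30M lies below.

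Genes tied to interferons rose in clusters of relatives. Interferons are signals of infection, and cells answer them through elements in promoters, among them the interferon-stimulated response element. A search for the letters of that element (GAAA, any 2 bases, GAAA), on both strands, in the RefSeq window from 250 bases before to 50 bases after the start of each gene found it in 39 of 255 higher genes with a window (15.3%), against 410 of 12648 tested genes with one (3.24%). Of the 4 lower genes with a window none had it. The window was not matched for 101 higher genes. Stretches of 60 bases upstream of the start (GRCm38.p6, given 5′ to 3′ on the strand of the gene) are shown for relatives within 3 gene families and for B2m. Capitals mark the match, which reads TTTC, any 2 bases, TTTC where the element lies on the other strand.
Irgm2 (chr11:58214888-58214947, plus strand): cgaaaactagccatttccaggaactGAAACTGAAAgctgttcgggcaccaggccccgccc
Igtp (chr11:58199496-58199555, plus strand): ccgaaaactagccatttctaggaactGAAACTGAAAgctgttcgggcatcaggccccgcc
Tgtp1 (chr11:48992289-48992348, minus strand): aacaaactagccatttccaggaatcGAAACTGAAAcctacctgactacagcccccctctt
Gbp2 (chr3:142620579-142620638, plus strand): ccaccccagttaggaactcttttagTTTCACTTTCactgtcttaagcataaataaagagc
Gbp3 (chr3:142559974-142560033, plus strand): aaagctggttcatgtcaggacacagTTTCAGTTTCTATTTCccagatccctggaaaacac
Gbp5 (chr3:142496744-142496803, plus strand): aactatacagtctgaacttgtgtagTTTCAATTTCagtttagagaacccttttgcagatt
Gbp7 (chr3:142530258-142530317, plus strand): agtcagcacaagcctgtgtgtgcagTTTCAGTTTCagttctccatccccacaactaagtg
Apol9a (chr15:77411105-77411164, minus strand): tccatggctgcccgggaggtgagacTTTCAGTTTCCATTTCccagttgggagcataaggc
Apol9b (chr15:77729010-77729069, plus strand): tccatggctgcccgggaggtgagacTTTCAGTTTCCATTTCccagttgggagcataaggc
Apol11a (chr15:77508194-77508253, plus strand): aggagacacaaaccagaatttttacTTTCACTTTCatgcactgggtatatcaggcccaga
Apol11b (chr15:77643302-77643361, minus strand): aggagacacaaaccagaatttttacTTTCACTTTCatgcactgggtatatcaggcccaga
B2m (chr2:122147523-122147582, plus strand): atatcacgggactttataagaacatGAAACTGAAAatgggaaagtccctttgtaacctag

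The printed stretches of Apol9a and Apol9b are the same letter for letter, as are those of Apol11a and Apol11b, so counts of such near copies may be split between them and are uncertain. The share of higher genes with the element counts such copies more than once. Only genes with a match are printed. The called interferon-linked genes Sp100, Sp110, Sp140 and Dtx3l had windows without the element. Other elements were searched in the same windows on both strands, with matches of different elements free to overlap. The PU.1 box GAGGAAGT stood in 30 of 255 higher genes (11.8%), against 402 of 12648 tested (3.18%). The gamma-activated site TTCNNNGAA stood in 25 (9.8%), against 877 (6.93%), and the NF-kB site (GGGA, any base, TTTCC) in 5 (1.96%), against 51 (0.403%). The CCAAT box, searched as CCAAT, stood in 75 (29.4%), against 4795 (37.9%). These shares describe letters in a window, and the elements were chosen after the values of the genes had been seen.

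Irgm2, Igtp and Tgtp1, GTPases of the same response, rose by 1.44, 1.53 and 1.79 on the log2 scale and were chosen for display after their values were seen; Igtp was lost without 6M_202 or 6M_203 (adjusted p up to 0.063) and Tgtp1 without 6M_203 (0.0542). Gbp5, a guanylate-binding protein that acts against pathogens inside cells, had 44.8, 48.5 and 42.8 CPM at 30M, against 16.5, 10.1 and 11.6 CPM at 6M (log2 change 1.83, SE 0.24, adjusted p = 0.00241). Gbp2 had 209, 224 and 117 CPM at 30M, against 79.8, 62.9 and 64.5 CPM at 6M (log2 change 1.41, SE 0.22, adjusted p = 0.0064), and was lost without 6M_203 (0.0542). Apol9b, of a family of apolipoproteins that act inside cells, had 32.7, 12.7 and 8.15 CPM at 30M, against 3.43, 3.55 and 3.31 CPM at 6M (log2 change 2.37, SE 0.42, adjusted p = 0.0129), and was lost without any of the 6M libraries (up to 0.0909). The near copies Apol9a, Apol11a and Apol11b were called and lost without 6M_202 or 6M_203 and some of the other libraries (adjusted p up to 0.0992, 0.188 and 0.155). In the Apol genes 9a and 9b the level at 30M was lowest in 30M_220. Gbp3 and Gbp7 rose by 1.45 (SE 0.30, adjusted p = 0.0259) and 1.21 (SE 0.19, adjusted p = 0.00754), but not without 6M_202 or 6M_203 (up to 0.167 and 0.0542), nor Gbp3 without 30M_216 or 30M_218. Other interferon-linked lists were called in 1 gene each, where 1.93% of all tested genes were higher. Of 7 Schlafen genes on the list Slfn9 was called (log2 change 1.61, SE 0.37, adjusted p = 0.0444), and not without any library other than 30M_220 (up to 0.192). Slfn14, a Schlafen gene that the list does not hold, also rose (log2 change 3.38, SE 0.68, adjusted p = 0.0233), and not without any library other than 30M_216 (up to 0.116). The median change of the list was 1.38, or 0.59 without 30M_216, and over the 6M mean it was 2.03 in 30M_216, against 0.99 and 0.59 in the other libraries at 30M. Of 18 interferon-linked PARP and TRIM genes Dtx3l alone rose (log2 change 0.85, SE 0.19, adjusted p = 0.0335), and not without 30M_216, 30M_220, 6M_202 or 6M_203 (up to 0.208). None of 8 GIMAP genes, GTPases of lymphocytes, passed (median 0.17, from 0.050 without 6M_203 to 0.34 without 30M_216). Since 1.93% of all tested genes were higher, so short a list often holds no call.

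Some called genes lay near one another on the chromosome. With less than 500000 bases between neighbouring calls, 16 stretches of at least 4 called genes were found. Each stretch begins and ends at a called gene. A share above the 1.93% of all tested genes is thus built into the rule. Whether calls lay closer together than their number would give was not tested. Every call in them was upward, but so were 356 of all 361 calls, so the direction says little about neighbours. Dense stretches were a Gbp stretch on chromosome 3 (5 of 6 tested genes), the Apol stretch on chromosome 15 (5 of 7) and 0.751 megabases of chromosome 1 that end at Sp100 (13 of 19). The highest share was in 0.042 megabases of chromosome 13, where all 4 tested genes rose, and where Gm36161, a lincRNA, had 23.7, 19.8 and 12.6 CPM at 30M, against 4.78, 3.38 and 2.18 CPM at 6M. In the chromosome 1 stretch (84958982 to 85709998, GRCm38) the named neighbours Sp100, Sp110 and Sp140, nuclear body proteins induced by interferon, rose by 0.81 (SE 0.19), 0.86 (SE 0.18) and 0.84 (SE 0.18), at adjusted p of 0.0466, 0.0242 and 0.0307. The predicted genes beside them rose more, up to 5.43 for Gm2619, which had 146 counts at 30M and 3 at 6M. Since this region holds many near-identical copies, how reads were split among them is uncertain. Without 6M_203 the calls of the stretch fell to 3 of 13, and Sp100, Sp110 and Sp140 were not among them (adjusted p up to 0.264, 0.161 and 0.193); Gm36161 was lost there and without 6M_202 (up to 0.088), Gm2619 likewise (0.063).

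The longest stretch was the MHC on chromosome 17, where 22 of 118 tested genes rose over 1.888 megabases. Many of the called genes fell in blocks of class I, class II and antigen processing genes, with uncalled genes between. Others were of different kinds, among them Myo1f, C4b and Aif1, each of which lost its call without 6M_203. Tap1, a subunit of the peptide transporter that loads class I molecules, had 123, 118 and 134 CPM at 30M, against 69.4, 45.5 and 43.0 CPM at 6M (log2 change 1.25, SE 0.18, adjusted p = 0.00367). Psmb8, a subunit of the immunoproteasome that cuts those peptides, had 155, 146 and 111 CPM at 30M, against 66.2, 57.5 and 52.7 CPM at 6M (log2 change 1.23, SE 0.17, adjusted p = 0.003). None of the 29 subunits of the constitutive proteasome was called, with a median of 0.02. Since 1.93% of all tested genes were higher, a list of that size often holds no call. The difference between the 2 forms was not tested. Over the MHC stretch as a whole the median tested gene changed by 0.24. Without 6M_203, 6M_202 or 30M_218 the MHC calls fell to 3, 5 and 13 of 22.

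The Ms4a genes on chromosome 19, membrane proteins of myeloid and lymphoid cells, had 6 of 10 tested genes called. Ms4a7, a macrophage member, had 12.9, 13.7 and 7.56 CPM at 30M, against 2.54, 3.47 and 2.75 CPM at 6M (log2 change 1.96, SE 0.28, adjusted p = 0.00337). Ms4a4a had 14.8, 9.84 and 10.7 CPM at 30M, against 1.72, 2.15 and 2.18 CPM at 6M (log2 change 2.54, SE 0.38, adjusted p = 0.00465). Without 6M_203 or 6M_202 the calls there fell to 2 and 3 of 6. Other stretches held receptor families of blood cells: Fcgr2b to Cd84 on chromosome 1 (7 of 37), Clec4a on chromosome 6 (6 of 15), Pirb to Gp6 on chromosome 7 (5 of 15) and Pilra with its neighbours on chromosome 5 (4 of 17). Of the genes named at their ends, Fcgr2b was lost without 6M_203 (adjusted p up to 0.0895), and Cd84, Pirb, Gp6 and Pilra without any of at least 5 libraries (up to 0.147, 0.188, 0.173 and 0.163). Spn, the sialophorin CD43 of leukocytes, lay in a stretch of chromosome 7 with Itgal (5 of 57) and had 63.1, 84.3 and 113 CPM at 30M, against 30.2, 17.6 and 16.7 CPM at 6M (log2 change 2.01, SE 0.29, adjusted p = 0.00465). By chromosome, 4.3% of tested genes rose on chromosome 17 (39 of 908), 2.92% on chromosome 1 (33 of 1131) and 2.9% on chromosome 15 (21 of 723). Among the numbered chromosomes the lowest shares were on chromosome 10, 0.583% (5 of 858), and on chromosome 2, 0.937% (13 of 1388).

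**Figure D4:**
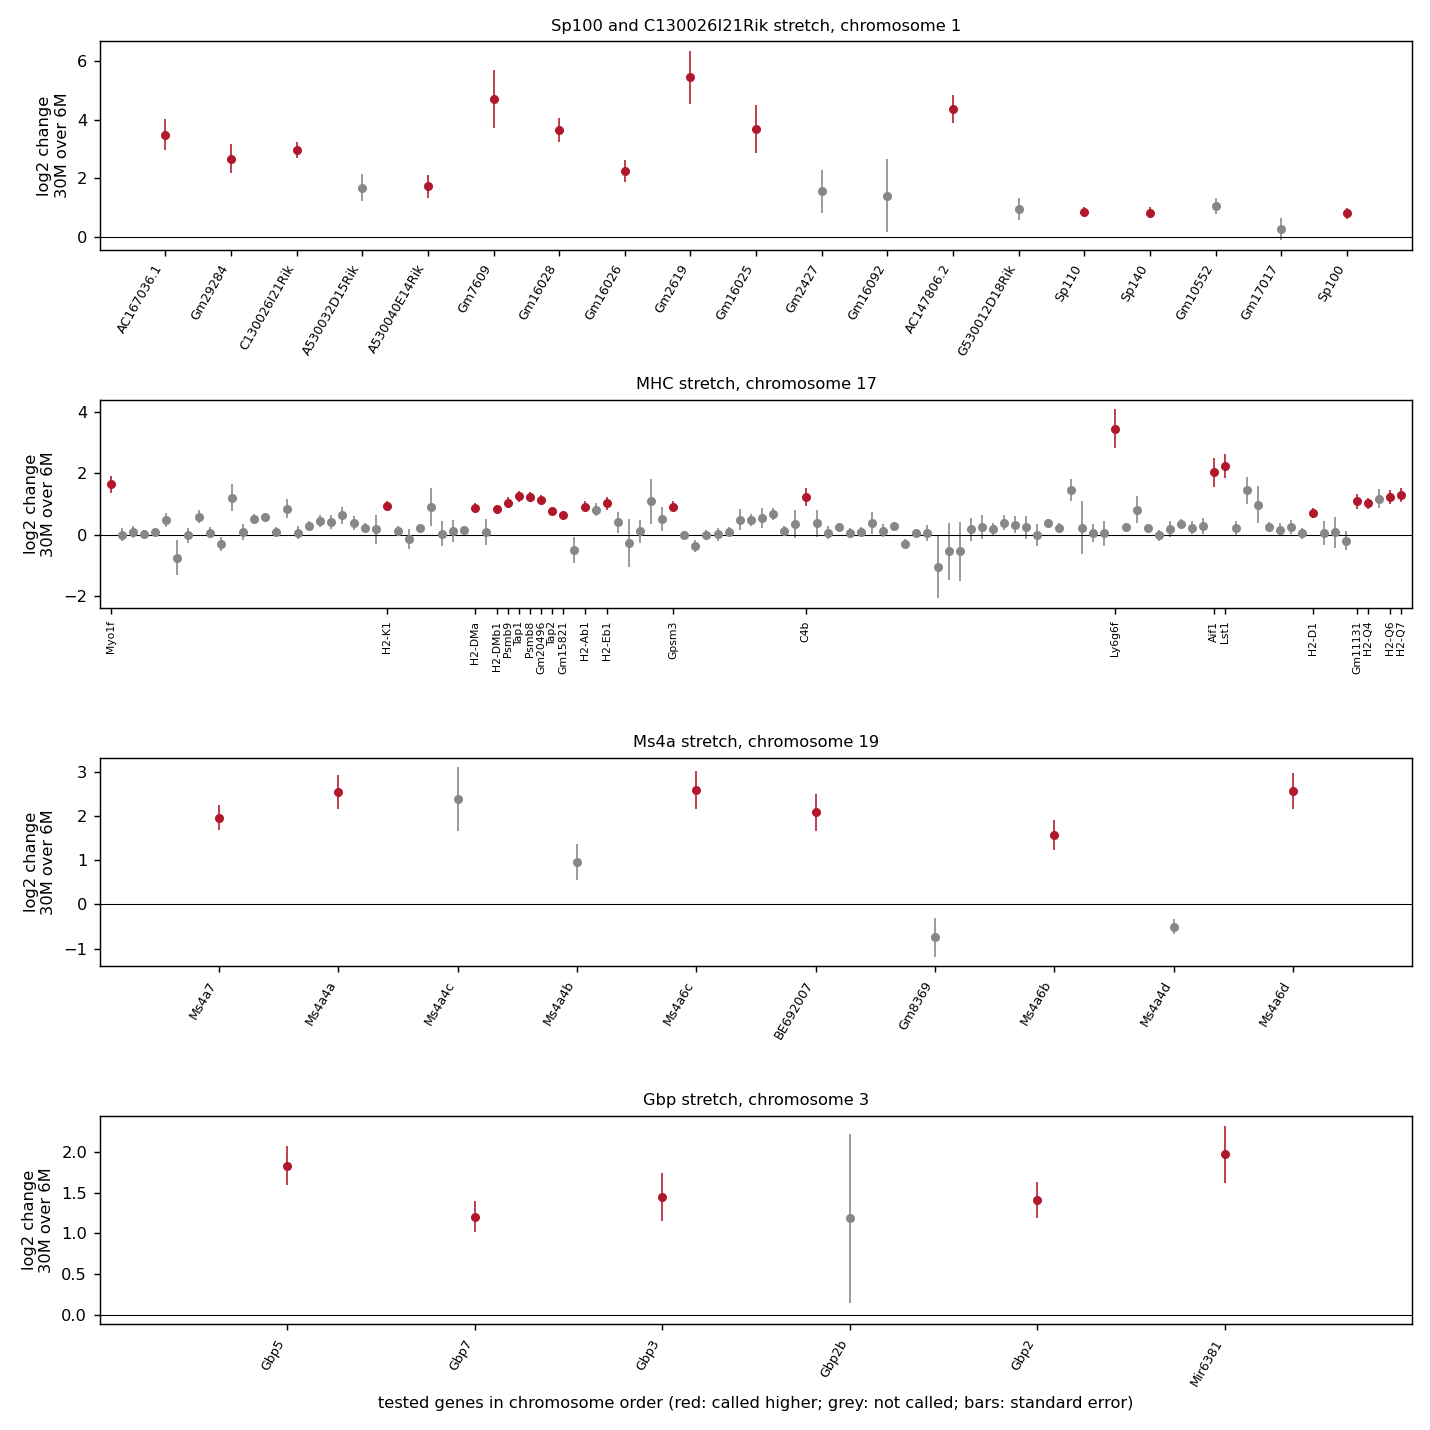
Log2 change, 30M over 6M, with SE, of each tested gene in 4 stretches, in chromosome order (red, called higher; grey, not called). Each stretch was set to begin and end at a called gene. In the Sp100 stretch 13 of 19 genes are red, in the MHC 22 of 118, in the Ms4a stretch 6 of 10 and in the Gbp stretch 5 of 6. In the MHC panel only called genes are named.

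Of 3901 noncoding and predicted genes tested, 35 were among the higher genes, 26 of them noncoding. By annotated type, 2.18% of protein-coding genes were higher (323 of 14813), against 0.908% of antisense transcripts (11 of 1211), 0.432% of lincRNAs (2 of 463) and 0.478% of processed pseudogenes (3 of 628). The difference between these shares was not tested. Gm12250 (ENSMUSG00000082292, chromosome 11, 58187739 to 58189012), annotated as a processed pseudogene beside the interferon-inducible GTPase genes, had 32.7, 12.1 and 13.1 CPM at 30M, against 2.39, 3.30 and 3.40 CPM at 6M (log2 change 2.67, SE 0.37, adjusted p = 0.00301). Gm20496, annotated as antisense within the MHC, had 75.6, 62.6 and 56.3 CPM at 30M, against 32.6, 29.8 and 26.8 CPM at 6M (log2 change 1.12, SE 0.17, adjusted p = 0.00465). Gm16028, antisense in the chromosome 1 stretch, had 4.92, 7.22 and 5.11 CPM at 30M, against 0.522, 0.495 and 0.323 CPM at 6M (log2 change 3.65, SE 0.41, adjusted p = 0.000952). The strand setting of the counting is not known, so reads of these antisense genes cannot be told from reads of their partners. Of 116 tested antigen receptor segment genes 5 were called, all higher, where 1.93% of all tested genes were. Their 30M libraries lay above their 6M libraries in 39 of the 116, where 9.89% of all tested genes did.

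By the place of the protein in the cell, the higher genes gathered at the surface. Among 41 location terms with at least 250 tested genes, taken from the deposited annotation, the term for the external side of the plasma membrane had the highest share, 11.3% (34 of 301), and then cell surface with 8.5% (34 of 400). Lysosome had 6.02% (16 of 266) and extracellular space 5.53% (54 of 977). Shares under the 1.93% of all tested genes were found for nucleus (1.54%, 81 of 5257), mitochondrion (0.994%, 18 of 1811), centrosome (0.427%, 2 of 468) and chromosome (0.215%, 1 of 465). No gene of cilium rose (0 of 267). The grouping was chosen after the values were seen and no test was made of it.

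The epithelium of the lung leaned the other way, and of the genes on its lists Lyz1 alone passed the test. Of all tested genes 0.0272% were called lower, so the lack of calls says little about these lists. None of 17 alveolar type 1 genes was called, though 16 had a negative change (median -0.46). In 11 of the 17 all libraries at 30M lay below all at 6M, where 8.66% of all tested genes did. Per library the median over the 6M mean was -0.17, -0.57 and -0.68, and under the alternatives the fitted median lay between -0.57 and -0.36. Akap5, an anchor for protein kinase A, had 395, 319 and 313 CPM at 30M, against 616, 622 and 644 CPM at 6M (log2 change -0.87, SE 0.27, adjusted p = 0.163). Vegfa, the vascular growth factor that type 1 cells supply to capillaries, had 815, 714 and 894 CPM at 30M, against 1230, 1031 and 1183 CPM at 6M (log2 change -0.51, SE 0.25, adjusted p = 0.486). Both genes stood apart without overlap and still missed the threshold. Of 20 alveolar type 2 genes only Lyz1 fell (median -0.30), and 19 changes were negative. Lamp3, of lamellar bodies, had 618, 430 and 331 CPM at 30M, against 676, 806 and 822 CPM at 6M (log2 change -0.74, SE 0.25, adjusted p = 0.206). Cldn18, a tight junction protein of the alveolus, had 775, 655 and 494 CPM at 30M, against 905, 870 and 968 CPM at 6M (log2 change -0.51, SE 0.20, adjusted p = 0.291). In these lists the shallowest change was in 30M_216 and the steepest in 30M_220. The fitted medians were -0.36 for type 1 and -0.23 for type 2 genes without 30M_220, and -0.57 and -0.45 without 30M_216.

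No airway gene on these lists was called, where 0.0272% of all tested genes were called lower. The 15 airway secretory genes had a median of -0.16, which was -0.31 without 30M_216, -0.27 without 30M_220 or with voom and -0.24 without 6M_201, with Scgb3a1, a secretoglobin, at 171, 140 and 163 CPM at 30M, against 264, 346 and 392 CPM at 6M (log2 change -1.08, SE 0.28, adjusted p = 0.0738). None of 23 motile cilium genes was called, while 22 of them had a negative change (median -0.25, or -0.38 without 30M_216). Dnah5, a heavy chain of outer dynein arms, had 63.2, 53.1 and 52.4 CPM at 30M, against 81.9, 75.8 and 73.2 CPM at 6M (log2 change -0.45, SE 0.14, adjusted p = 0.159). No called gene changed by less than 0.53 on the log2 scale, and the medians of these epithelial lists all lay within that.

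**Figure D5:**
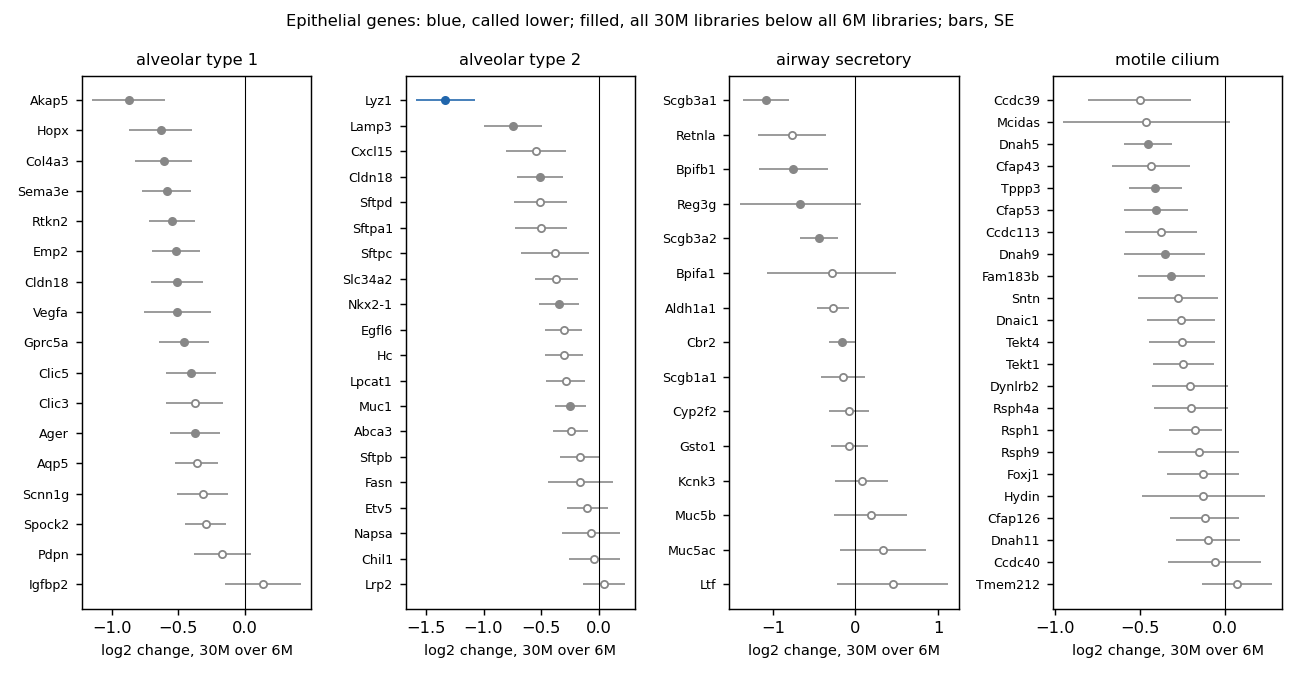
Log2 change, 30M over 6M, with SE, of each measured gene of 4 epithelial lists. Filled points have all 30M libraries below all 6M libraries and the blue point, Lyz1, is the 1 gene called; nearly all points lie left of 0 in the alveolar lists.

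Vessels, stroma and matrix were close to even. Of all tested genes 1.93% were higher and 0.0272% lower, so none or 1 higher call in a list this short says little about it. Of 21 capillary genes Fibin fell (median -0.06) and of 24 fibroblast genes Edil3 fell (median -0.19, or -0.34 without 30M_220), and no gene of either list rose. Of 21 genes of large vessels and lymphatics Cxcl12, the chemokine of arterial endothelium and stroma, rose to 212.80, 211 and 303 CPM at 30M, against 119, 111 and 104 CPM at 6M (log2 change 1.13, SE 0.26, adjusted p = 0.0441). Rgs5, a marker of pericytes, was the 1 gene called of 20 for smooth muscle and pericytes, with 38.0, 24.3 and 32.9 CPM at 30M, against 16.3, 12.9 and 15.0 CPM at 6M (log2 change 1.10, SE 0.20, adjusted p = 0.0144). Vcan, a large proteoglycan, was the 1 gene called of 25 proteoglycans and matricellular proteins, with 38.1, 16.5 and 13.1 CPM at 30M, against 4.55, 4.62 and 4.28 CPM at 6M (log2 change 2.33, SE 0.38, adjusted p = 0.00834). Cxcl12 lost its call without any 1 library (adjusted p up to 0.22), Rgs5 without 30M_216, 6M_202 or 6M_203 (up to 0.0887) and Vcan without 6M_203 (0.063). None of 22 collagens was called, with a median of 0.0061 that hid a split between libraries, -0.40 and -0.27 in 30M_216 and 30M_218 against 0.38 in 30M_220. The smooth muscle list split alike, at -0.32, -0.11 and 0.51. The library with the high medians is the one with the GC trend and the most cardiac muscle RNA. With the GC trend of each library removed, the fitted median was -0.10 for collagens and 0.11 for the smooth muscle list. Without 30M_220 the fitted medians were -0.35 and -0.22. What part the GC trend or cardiac muscle RNA had in the split between libraries was not tested. Elastic fibre genes and laminins (29 measured), collagen processing (19) and matrix proteases with their inhibitors (27) had no call, with medians of -0.0023, -0.13 and 0.0025.

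No gene of the growth and patterning lists was called, where 1.96% of all tested genes were. None of 38 Wnt, 37 TGF-beta and BMP, 31 FGF, VEGF, PDGF and angiopoietin, 26 Notch and Hedgehog or 17 insulin-like growth factor genes passed, with medians of -0.09, 0.09, -0.05, 0.07 and -0.02. Among them were genes whose ages did not overlap, as was so for 9.89% of all tested genes upward and 8.66% downward. Pdgfra, the receptor of matrix fibroblasts, had 172, 187 and 245 CPM at 30M, against 260, 284 and 267 CPM at 6M (log2 change -0.43, SE 0.14, adjusted p = 0.21). Igfbp6, a binding protein of insulin-like growth factor 2, had 215, 217.74 and 162 CPM at 30M, against 267, 324 and 329 CPM at 6M (log2 change -0.63, SE 0.16, adjusted p = 0.0698). Tgfb1, the cytokine of repair and scarring, had 71.2, 71.3 and 83.4 CPM at 30M, against 56.8, 51.5 and 43.4 CPM at 6M (log2 change 0.57, SE 0.20, adjusted p = 0.237).

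In cell division, 2 of 35 cell cycle and DNA replication genes rose and 33 had a positive change (median 0.48, or 0.24 without 30M_218). Mki67, a protein of dividing cells, had 27.1, 36.9 and 27.6 CPM at 30M, against 12.3, 14.1 and 10.1 CPM at 6M (log2 change 1.33, SE 0.25, adjusted p = 0.0173). Uhrf1, which keeps DNA methylation through replication, was the 1 gene called of 20 for DNA methylation and polycomb, with 7.5, 11.4 and 9.44 CPM at 30M, against 4.10, 3.22 and 4.69 CPM at 6M (log2 change 1.24, SE 0.28, adjusted p = 0.0436). Both were lost without 30M_218, 6M_201, 6M_202 or 6M_203, Uhrf1 also without 30M_220, at an adjusted p of up to 0.129 for Mki67 and 0.198 for Uhrf1. None of 29 DNA repair genes was called (median 0.04), where 1.96% of all tested genes were. Of 20 senescence inhibitors and p53 targets Pmaip1, the killer protein NOXA, rose by 0.88 (SE 0.20, adjusted p = 0.0374), and not without any 1 library (up to 0.165).

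Lists of core machinery and metabolism held few calls. Of all tested genes 1.93% were higher and 0.0272% lower, so none or 1 call in such a list says little about it. None of 72 nuclear genes of oxidative phosphorylation (median 0.11), 12 proteins of the mitochondrial genome (-0.04), 28 splicing factors (-0.07), 16 sirtuin and NAD genes (0.09), 28 genes of the citrate cycle and fatty acid oxidation (-0.01), 20 of cholesterol synthesis (-0.12) or 23 of xenobiotic metabolism (-0.06) was called. Of 21 glycolysis genes 1 rose, Slc2a3, a glucose transporter (log2 change 1.36, SE 0.32, adjusted p = 0.0471), which was lost without any 1 library (up to 0.254), and 18 had a positive change (median 0.22). Of 80 cytosolic ribosomal proteins 1 rose, Rps29, where 1.93% of all tested genes did, and 76 had a positive change (median 0.20). That median was 0.31 and 0.51 in 30M_216 and 30M_218 against -0.25 in 30M_220, and the fitted median was 0.40 without 30M_220 and 0.03 without 30M_218. Rps29 had 221.51, 418 and 282 CPM at 30M, against 145, 178 and 158 CPM at 6M (log2 change 0.94, SE 0.20, adjusted p = 0.0322), and was lost without 30M_218 or any 6M library (up to 0.174). Of 25 antioxidant genes Hmox1, the inducible enzyme that breaks down haem, rose by 0.69 (SE 0.15, adjusted p = 0.0376), with 62.9, 56.6 and 44.5 CPM at 30M, against 29.9, 33.4 and 38.3 CPM at 6M. It was lost without any library other than 30M_220 (up to 0.158).

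Heat shock and immediate early genes leaned downward without a call, where 0.0272% of all tested genes were called lower. Of 20 heat shock chaperones 19 had a negative change and none passed (median -0.37). Their summed CPM was 4441 in 6M_201, 7794 in 6M_202 and 7594 in 6M_203, and ran from 4706 to 6033 at 30M. Hsp90aa1, the inducible cytosolic form, had 856, 584 and 542 CPM at 30M, against 666, 1308 and 1179 CPM at 6M (log2 change -0.67, SE 0.31, adjusted p = 0.421). None of 24 immediate early genes passed (median -0.32, or -0.09 without 6M_201 and -0.53 without 6M_203). Fos had 36.1, 18.3 and 26.8 CPM at 30M, against 85.5, 62.8 and 26.4 CPM at 6M (log2 change -1.11, SE 0.41, adjusted p = 0.281). In both genes 1 library at 6M lay among those at 30M, and it was not the same library. Genes of endoplasmic reticulum stress (26 measured), hypoxia (18) and the circadian clock (19) had no call, with medians of -0.09, -0.12 and 0.09. Dbp, an output gene of the clock that swings with the hour of the day, had 17, 130 and 32.5 CPM at 30M, against 17.8, 13.7 and 34.1 CPM at 6M.

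The 5 lower genes were few and of unlike function. Edil3 (ENSMUSG00000034488, chromosome 13, 88821472 to 89323223, plus strand), a secreted integrin ligand, had 9.43, 5.49 and 8.60 CPM at 30M, against 20.2, 23.9 and 17.9 CPM at 6M (log2 change -1.39, SE 0.23, adjusted p = 0.00893). Peg3 (ENSMUSG00000002265, chromosome 7, 6703892 to 6730431, minus strand), a paternally expressed imprinted gene for a zinc finger protein, had 5.89, 4.10 and 6.79 CPM at 30M, against 13, 15.7 and 17 CPM at 6M (log2 change -1.44, SE 0.25, adjusted p = 0.0104). In both, the highest library at 30M lay well under the lowest at 6M. Lyz1 (ENSMUSG00000069515, chromosome 10, 117287797 to 117292868, minus strand), the lysozyme of the mouse that type 2 cells make, had 344, 194 and 168 CPM at 30M, against 435, 671 and 668 CPM at 6M (log2 change -1.33, SE 0.25, adjusted p = 0.0173). Its near copy Lyz2, of myeloid cells and type 2 cells, was not called, with 9900, 5838 and 4315 CPM at 30M, against 6613, 8273 and 8013 CPM at 6M (log2 change -0.19, SE 0.29, adjusted p = 0.899). Reads shared by the 2 copies could be split between them.

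Fibin (ENSMUSG00000074971, chromosome 2, 110360917 to 110363183, minus strand), a secreted protein, had 33.5, 25.3 and 34.9 CPM at 30M, against 60.9, 71.8 and 76.2 CPM at 6M (log2 change -1.16, SE 0.22, adjusted p = 0.0194). Fam162b (ENSMUSG00000019909, chromosome 10, 51585416 to 51590517, minus strand) had 3.63, 4.35 and 3.56 CPM at 30M, against 5.97, 7.26 and 8.97 CPM at 6M (log2 change -0.94, SE 0.22, adjusted p = 0.0427). All 5 lost the call without 6M_202, at adjusted p of up to 0.0505 for Edil3, 0.0678 for Peg3, 0.103 for Lyz1, 0.11 for Fibin and 0.263 for Fam162b. Peg3, Lyz1, Fibin and Fam162b lost it without 6M_203 too, Lyz1, Fibin and Fam162b without 30M_218, and Fam162b without 30M_216 or 30M_220. The 10 genes next in line downward had adjusted p of 0.0529 to 0.0625 and did not overlap between the ages. They included Apln, which encodes apelin, a peptide of endothelial cells, with 13.5, 13.6 and 19.3 CPM at 30M, against 44.4, 35.0 and 28.9 CPM at 6M (log2 change -1.22, SE 0.29, adjusted p = 0.0529). Kcne2, a potassium channel subunit, had 22.3, 19.4 and 17.5 CPM at 30M, against 32.8, 32.4 and 37.4 CPM at 6M (log2 change -0.80, SE 0.19, adjusted p = 0.0529). Slc28a2b had 0.0806, 0.164 and 0.0647 CPM at 30M, against 2.31, 0.578 and 1.54 CPM at 6M (log2 change -3.76, SE 0.92, adjusted p = 0.0572), the most negative estimate of those 10.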

How the data were processed

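Total RNA of whole lung was sequenced as mRNA libraries, per the labels' protocols. For 12 libraries the authors deposited raw counts of reads for each gene. The aligner HISAT2 2.1.0, featureCounts, Trimmomatic 0.38, FastQC 0.11.7 and the build GRCm38 (mm10) are named, per the submitters' processing notes. Neither the annotation release nor the strand setting is given in the sources used here; overlapping, antisense and near-copy genes therefore have uncertain counts. Whether each library came from its own animal is not in the labels; p-values then measure only how far these libraries differ, which may be technical.

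A single edgeR 4.0.16 fit in R 4.3.3 held the 12 libraries (TMM, filterByExpr by age, robust quasi-likelihood), and the contrast of 30M over 6M was tested in it. A call is a Benjamini-Hochberg adjusted p under 0.05 over all 18407 tested genes. The common biological coefficient of variation was 0.2363. SE is the log2 change divided by the square root of F. Values over the 6M mean are log2 CPM with a prior count of 2. GC content and gene windows come from GENCODE and RefSeq tables on GRCm38. Depth limits genes with few counts, and no interval is given for them beyond the SE.

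The comparison, the 69 gene lists and the rule for named genes were chosen with earlier results of these data known. The rule names genes by smallest p (12 higher, all lower and the next 10, up to 4 per list, up to 10 noncoding or predicted, 12 on no list), the called genes and the genes of all with the most reads, and called genes in stretches, and the text gives a part of them. Location terms, promoter elements and the counts kept per stretch were chosen after values were seen. Alternatives were DESeq2 1.42.0, its size factors in edgeR, limma 3.58.1 voom with quality weights, removal of each library's GC trend, other count filters, only the 6 libraries compared, and each of them left out in turn.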

Additional observations from a re-analysis of the deposited data

How the results depend on the processing

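No paired analysis was possible because the libraries of the 2 ages share no replicate number. Calls, higher and lower, numbered 361, 356 and 5. DESeq2 gave 753 calls, 671 higher and 82 lower, among them all 361. Voom gave 595, 564 and 31. With the GC trend of each library removed there were 392 calls, 11 of them lower, and with no filter on low counts 359, 11 of them lower. With only the 30M and 6M libraries there were 357, 14 of them lower, and 284 of the 361 were shared. With 1 library left out there were 69 calls (67 higher) without 6M_203 to 326 (319 higher) without 30M_220, and 0 lower without 6M_202 to 29 without 30M_216; the cause was not tested. All 13 alternatives called 66 of the 361 genes, all higher. The median log2 change over all genes lay between -0.0188 and 0.00896 in the alternatives, against 0.0028 in the main fit. Of named genes not called, mt-Co1 (log2 change -0.02) turned positive, at 0.10 with the GC trend removed and 0.037 with voom. With 1 library left out the log2 change ran from -0.31 to 0.056 for Scgb1a1, -0.25 to 0.10 for mt-Co1, -0.59 to 0.044 for Lyz2, -0.14 to 0.40 for Tmsb4x, -0.28 to 0.047 for Cyp2f2, -0.25 to 1.15 for Gas1 and -0.51 to 1.68 for Timp1. At 3 libraries an age, an exact permutation test of a single value cannot go below p = 0.1.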

Other observations

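The libraries at 12 and 20 months entered the fit but not the comparison, and their levels of some named genes are given here as values, as mean ± SD of 3 libraries in CPM and without a test. Some genes that were higher at 30 months, among them F10 and Vcan, had mean levels at 12 and 20 months close to that at 6 months. F10, coagulation factor X, averaged 5.36 ± 0.710 at 6M, 5.38 ± 1.31 at 12M, 5.14 ± 1.26 at 20M and 25.3 ± 6.45 at 30M. Vcan, the proteoglycan versican, averaged 4.49 ± 0.178 at 6M, 4.88 ± 1.13 at 12M, 4.91 ± 1.65 at 20M and 22.6 ± 13.6 at 30M. Each of the 6 libraries at 12M and 20M lay below every 30M library for both genes. Plek averaged 56.4 ± 7.04 at 6M, 66.9 ± 5.26 at 12M, 61.5 ± 16.5 at 20M and 148 ± 14.2 at 30M. The 12M libraries of Cd300e all lay above its 6M libraries, with averages of 3.61 ± 1.25, 7.41 ± 1.17, 6.25 ± 1.81 and 28.7 ± 8.84 at the same ages.

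Other genes differed along the way. C130026I21Rik averaged 3.09 ± 1.40 at 6M, 9.39 ± 1.54 at 12M, 17.2 ± 2.47 at 20M and 24.4 ± 1.13 at 30M, with no overlap between any of the ages. Igkc averaged 122 ± 20.8 at 6M, 823 ± 725 at 12M, 1134 ± 617 at 20M and 1185 ± 316 at 30M, and its libraries at 12M ran from 188 to 1613. Of the lower genes, Lyz1 averaged 592 ± 135 at 6M, 393 ± 18.2 at 12M, 298 ± 45.4 at 20M and 235 ± 94.9 at 30M. Edil3 averaged 20.7 ± 2.99 at 6M, 17.9 ± 4.52 at 12M, 11 ± 0.900 at 20M and 7.84 ± 2.08 at 30M, and Peg3 15.2 ± 2.04, 9.53 ± 2.67, 9.22 ± 0.893 and 5.59 ± 1.37 at the same ages.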
